A study of Mus musculus with 7 samples.

Results

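The 8 genes described here, Lyz1, Mmp7, Ang4, Itln1, Defa17, Defa22, Defa24 and Defa26, encode secreted products of Paneth cells, most of them rich in cysteine, and were chosen by gene name from the 38293 genes of the deposited count table. All 8 names were found, each in 1 row. RNA was sequenced from ileal mucosa of male C57BL/6NRJ mice, a wild-type inbred strain, that were housed individually. They were described as 8 weeks old, and their age when the tissue was taken is not stated. All mice first ate the same purified AIN93G diet, with 40% of energy from fat and low in calcium, for 1 week. For the next 2 weeks 4 mice ate this diet with 0.38% total cystine (normal cys: libraries X17SI4, X32SI4, SI9 and X1SI4) and 3 mice a diet with 0.08% total cystine (low cys: libraries X23SI4, X26SI4 and X10SI4), in which alanine replaced the added cystine, so the low cys diet also held more alanine. The mucosa was scraped off the ileum, the last part of the small intestine, with epithelium and lamina propria but without the muscle layer, so each value is a mean over many cell types. In such bulk samples, fewer Paneth cells and less RNA per Paneth cell cannot be told apart.

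Paneth cells sit at the base of the small intestinal crypts, between the stem cells, and release granules of antimicrobial proteins into the crypt lumen. Mouse alpha-defensins (cryptdins) are made as precursors that the metalloproteinase matrilysin, encoded by Mmp7, cuts into active peptides, and each peptide is held in shape by disulfide bonds between its cysteines. Lysozyme, encoded by Lyz1 in Paneth cells, cuts bacterial cell walls. Ang4 encodes a ribonuclease of the angiogenin family with antibacterial activity, and Itln1 encodes a lectin, intelectin, that binds microbial sugars. The comparison asks whether the RNA of these products differed in mice that ate less cystine, the dietary source of cysteine.

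The 4 defensin members lie in a cluster on chromosome 8, and the 3' end of their reading frames shows both why they are called cysteine-rich and how alike they are. The last 34 codons of each, from the last of 2 exons on the plus strand of GRCm38 (GENCODE M21 transcripts), are printed 5′ to 3′ in lower case with the cysteine codons in capitals.
Defa17, chr8:21656537-21656638: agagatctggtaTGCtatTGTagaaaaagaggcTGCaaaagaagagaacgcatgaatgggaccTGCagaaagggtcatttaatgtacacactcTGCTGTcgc
Defa22, chr8:21163051-21163152: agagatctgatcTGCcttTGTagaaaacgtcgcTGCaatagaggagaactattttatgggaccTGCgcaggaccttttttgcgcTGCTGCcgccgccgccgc
Defa24, chr8:21735273-21735374: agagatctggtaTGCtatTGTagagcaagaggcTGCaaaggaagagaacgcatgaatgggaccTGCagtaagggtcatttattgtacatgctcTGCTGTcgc
Defa26, chr8:21618778-21618879: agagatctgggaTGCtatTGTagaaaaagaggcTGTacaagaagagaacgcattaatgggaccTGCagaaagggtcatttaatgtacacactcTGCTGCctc

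Each stretch holds 6 cysteine codons, which are all the cysteine codons of its 93-codon reading frame. The first 4 stand at the same places in all 4 genes, codons 5, 7, 12 and 22 of the stretch, and the last 2 are neighbours, at codons 32 and 33 in Defa17, Defa24 and Defa26 and at codons 29 and 30 in Defa22. Over these 102 bases, Defa17 had the same base as Defa26 at 94.1% of positions and as Defa24 at 93.1%, and Defa24 and Defa26 matched at 87.3%. Defa22 matched the other 3 at only 61.8% to 65.7%. In this comparison 3 of the members form a close group and Defa22 stands apart from it. The stretches were compared base by base without gaps. The last 2 cysteine codons of Defa22 are therefore set against other codons, and its likeness may be understated.

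Cysteine codons made up 6.45% of the reading frame of each of the 4 defensins, a higher share than in 95.7% of 21522 mouse coding genes (median 2.13%). The share was 5.41% in Lyz1, with 8 of 148 codons, and 4.86% in Ang4, with 7 of 144. Itln1, at 2.88%, was nearer the median. Mmp7, the processing protease, had 3 cysteine codons in 267 (1.12%), below the median, so it is not itself a cysteine-rich product.

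The likeness between defensin genes also bears on how the values can be read, since the reads were 50 bases long. They were sequenced in pairs, but single stretches were compared here, so the shares below can overstate how many read pairs are ambiguous. Of the 50-base stretches in the transcripts of Defa17, 91.95% also occurred in another gene, and Defa3 alone held all of these. For Defa22 the share was 74.86%, most of it shared with Defa21. Defa24, at 28.11%, and Defa26, at 40.25%, were more distinct. The largest part of the Defa26 overlap was with Gm15292, a gene not named Defa, and whether it is a defensin was not examined. Lyz1 shared 16.06% of its stretches, all with Lyz2, the lysozyme gene of macrophages. Mmp7 (7.36%), Ang4 (4.7%) and Itln1 (0.97%) shared little.

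**Figure D1:**
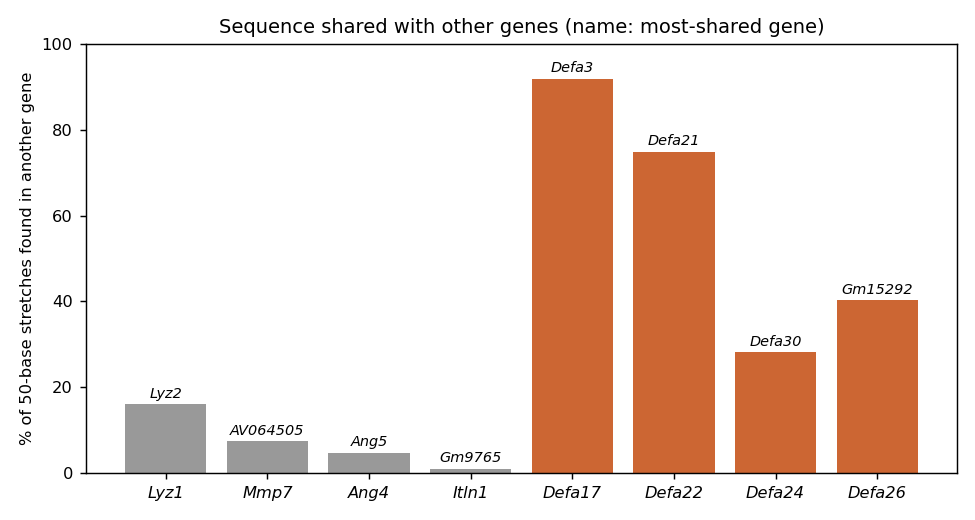
Percent of the 50-base stretches of each gene's transcripts (y axis, 0 to 100) that also occur in transcripts of another gene, for the 8 genes (x axis); the name over each bar is the gene that shares most of them, and the 4 defensins are orange. Defa17 (91.95%) and Defa22 (74.86%) stand far above Lyz1 (16.06%), Mmp7, Ang4 and Itln1.

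How multi-mapping reads were counted is not given in the sources used here. The values of Defa17 and Defa22 are therefore uncertain as values of single genes, and the alpha-defensin family is also given as a sum.

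The deposited values are reads counted on exons, as raw counts. The 4 normal cys libraries held 19712355 to 22412703 counts and the 3 low cys libraries 14888760 to 21942518. Normalised counts (CPM) below are counts relative to the library total after scaling by the TMM method, and 14869 genes passed the filter on low counts, all 8 members among them. Members were compared between the diets by edgeR's quasi-likelihood test with Benjamini-Hochberg adjustment over all genes tested, and by an exact permutation test (two-sided) that runs through the 35 divisions of the libraries into 4 and 3 and cannot give a p below 0.0286. Library X1SI4 stood apart: it had the lowest level of all 8 members, between 5.72 and 12.5 times below the highest library. The fold changes of the members are therefore also given without it. The family, the ratios and correlations between members and the cell type lists are given only with it.

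All 8 members had higher means on the low cys diet, by a median of 0.75 on the log2 scale (0.20 to 0.81), but none of these differences passed the test and the values of the diets overlapped in every member. With edgeR, 0 of the 8 had an adjusted p under 0.05, as did 0% of all genes tested, and 0 had an unadjusted p under 0.05, as against 5.49% of all genes tested. The libraries of the 2 diets fell into separate ranges in 0 of the 8 members and in 6.83% of all genes. Over all genes tested the median was 0.01 and 51.2% had a higher estimate on the low cys diet. The members varied together from mouse to mouse, so their common direction is not 8 separate observations.

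Among the enzymes, Lyz1 (ENSMUSG00000069515, chromosome 10, 117287796 to 117292868, minus strand) stood at 1853, 762, 870 and 280 CPM in normal cys libraries X17SI4, X32SI4, SI9 and X1SI4, and at 1812, 1221 and 1917 CPM in low cys libraries X23SI4, X26SI4 and X10SI4. All normal cys libraries but X17SI4 lay below every low cys library, whereas X17SI4 lay among the low cys values. The means were 941 ± 660 CPM (SD, n = 4) and 1650 ± 375 CPM (SD, n = 3). The log2 fold change was 0.81 ± 0.52 (SE), with a 95% interval of -0.38 to 1.999, an adjusted p of 0.794 with edgeR and an exact permutation p of 0.171. Lyz2, the lysozyme of macrophages, was much lower, at 13.2 to 63.2 CPM over the 7 libraries, so most lysozyme counts belonged to the Paneth cell gene.

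Mmp7 (ENSMUSG00000018623, chromosome 9, 7692090 to 7699585, plus strand), the defensin-processing protease, was the least expressed member per kilobase together with Defa26. It stood at 84.6, 33.9, 22.4 and 7.45 CPM in the normal cys libraries X17SI4, X32SI4, SI9 and X1SI4, and at 93.2, 30.0 and 67.4 CPM in the low cys libraries X23SI4, X26SI4 and X10SI4. Its 12.5-fold range over the libraries was the widest of the 8 members, and the ranges of the diets overlapped. The log2 fold change of 0.78 had a 95% interval of -0.82 to 2.37 (edgeR adjusted p = 0.809, exact permutation p = 0.286).

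Ang4 (ENSMUSG00000060615, chromosome 14, 51763878 to 51773590, minus strand) differed least between the diets. Its levels were 98.1, 93.9, 75.8 and 17.7 CPM in X17SI4, X32SI4, SI9 and X1SI4, and 84.3, 60.3 and 101 CPM in X23SI4, X26SI4 and X10SI4. Apart from X1SI4, the normal cys mice had levels as high as the low cys mice. Between the diets the log2 fold change was 0.20, with a 95% interval of -0.93 to 1.33 (edgeR adjusted p = 0.918, exact permutation p = 0.829). Without X1SI4 it was -0.12, so the direction of this gene rested on 1 library.

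Itln1 (ENSMUSG00000038209, chromosome 1, 171518122 to 171535294, minus strand), the lectin, stood at 526, 282, 306 and 69.6 CPM in X17SI4, X32SI4, SI9 and X1SI4, and at 541, 310 and 571 CPM in X23SI4, X26SI4 and X10SI4. Low cys libraries X10SI4 and X23SI4 were the highest of the 7, and X26SI4, the lowest on that diet, was level with SI9. Its log2 fold change was 0.68, with a 95% interval of -0.57 to 1.93 (edgeR adjusted p = 0.804, exact permutation p = 0.143).

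Of the 4 defensin members, Defa24 (ENSMUSG00000064213, chromosome 8, 21734494 to 21735471, plus strand) was the most abundant per kilobase in every library. It was counted at 1337, 802, 681 and 221 CPM in X17SI4, X32SI4, SI9 and X1SI4, and at 1447, 770 and 1539 CPM in X23SI4, X26SI4 and X10SI4. The means were 760 ± 459 CPM (SD, n = 4) on the normal cys diet and 1252 ± 420 CPM (SD, n = 3) on the low cys diet, and the low cys library X26SI4 lay below the normal cys library X32SI4. The fitted log2 fold change was 0.72, with a 95% interval of -0.45 to 1.89 (edgeR adjusted p = 0.798, exact permutation p = 0.171).

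Defa22 (ENSMUSG00000074443, chromosome 8, 21162277 to 21163249, plus strand) was the defensin member least like the others in the comparison without gaps. It was counted at 925, 522, 552 and 131 CPM in X17SI4, X32SI4, SI9 and X1SI4, and at 1014, 614 and 1119 CPM in X23SI4, X26SI4 and X10SI4. Only X17SI4 kept the diets from separating. By edgeR the log2 fold change was 0.78, with a 95% interval of -0.43 to 1.998 (edgeR adjusted p = 0.794, exact permutation p = 0.143). Its counts differed from those of Defa21, with which it shares most of its sequence, by 0.196% to 3.23% per library.

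Defa17 (ENSMUSG00000060208, chromosome 8, 21655780 to 21656735, plus strand) was counted at 743, 413, 368 and 106 CPM in X17SI4, X32SI4, SI9 and X1SI4, and at 830, 419 and 878 CPM in X23SI4, X26SI4 and X10SI4. As for Defa22, the 1 normal cys library among the low cys values was X17SI4. The difference on the log2 scale was 0.80, with a 95% interval of -0.45 to 2.05 (edgeR adjusted p = 0.794, exact permutation p = 0.143).

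Defa26 (ENSMUSG00000060070, chromosome 8, 21618183 to 21618972, plus strand) was a minor defensin, at 23.6, 13.1, 10.9 and 3.34 CPM in X17SI4, X32SI4, SI9 and X1SI4, and at 24.0, 13.6 and 20.1 CPM in X23SI4, X26SI4 and X10SI4. The lowest of these values rested on 70 counts. The log2 fold change was 0.60, with a 95% interval of -0.60 to 1.79 (edgeR adjusted p = 0.805, exact permutation p = 0.229). It was thus lower than its close relative Defa17 in every library but was ordered across the mice in much the same way.

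**Figure D2:**
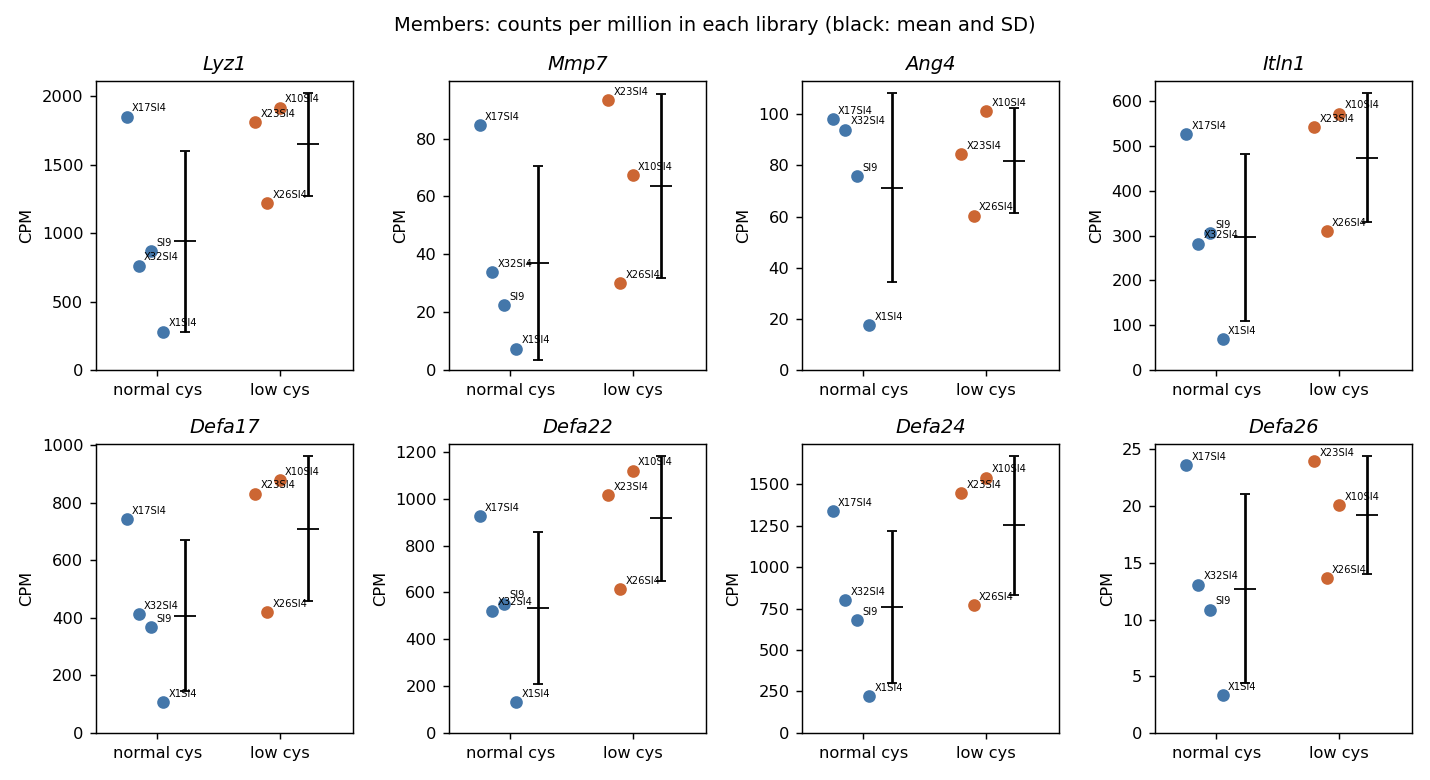
CPM (y axis, linear, from 0) of each of the 8 genes in the 4 normal cys (blue) and 3 low cys (orange) libraries; each point is 1 library, and the black marks are the mean and SD of the diet. In every panel X1SI4 is the lowest point, and the ranges of the diets overlap.

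The order of the members by CPM per kilobase was nearly fixed across mice. Defa24 ranked first in all 7 libraries (528 to 3672 CPM per kilobase), followed by Defa22 (312 to 2670), Defa17 (266 to 2211), Lyz1 (221 to 1517), Itln1 (61.0 to 501) and Ang4 (24.9 to 143), each at the same rank in every library. Mmp7 (6.98 to 87.2) and Defa26 (8.99 to 64.4) changed places between libraries and could not be ordered. Reads shared with other defensin rows may count in Defa22 and Defa17, so their ranks as single genes are uncertain. The ranges overlap widely because the whole group moves between mice, while the order within a mouse stays.

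This is also seen when each gene is set against Defa24 in the same library. Defa17 was 47.9% to 57.4% of Defa24 in CPM, Defa22 59.2% to 81.1% and Defa26 1.31% to 1.77%. Lyz1 ranged from 95.02% to 159% and Itln1 from 31.5% to 44.9%. The 2 members with the least constant ratio were Mmp7, from 3.29% to 6.44%, and Ang4, from 5.83% to 11.7%. The Ang4 ratio was 9.54 ± 2.20% (SD, n = 4) on the normal cys diet and 6.74 ± 1.01% (SD, n = 3) on the low cys diet, with overlapping ranges. Across a 6.96-fold range of Defa24 between mice, the ratio of each other member to it varied by at most 2.01-fold.

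Between pairs of members, Pearson's r of log2 CPM over the 7 libraries ran from 0.858 to 1.00, with a median of 0.978 over 28 pairs. The libraries share their depth, their scaling and, for the defensins, part of their reads, and X1SI4 adds to every one of these values. On average over the 8 genes, log2 CPM lay 2.05 below the gene's own mean in X1SI4, 0.23 below in SI9, 0.08 below in X32SI4 and 0.05 below in X26SI4. It lay 0.77 above the mean in X17SI4 and 0.82 above in both X23SI4 and X10SI4. The high mice were thus 1 on the normal cys diet and 2 on the low cys diet.

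**Figure D3:**
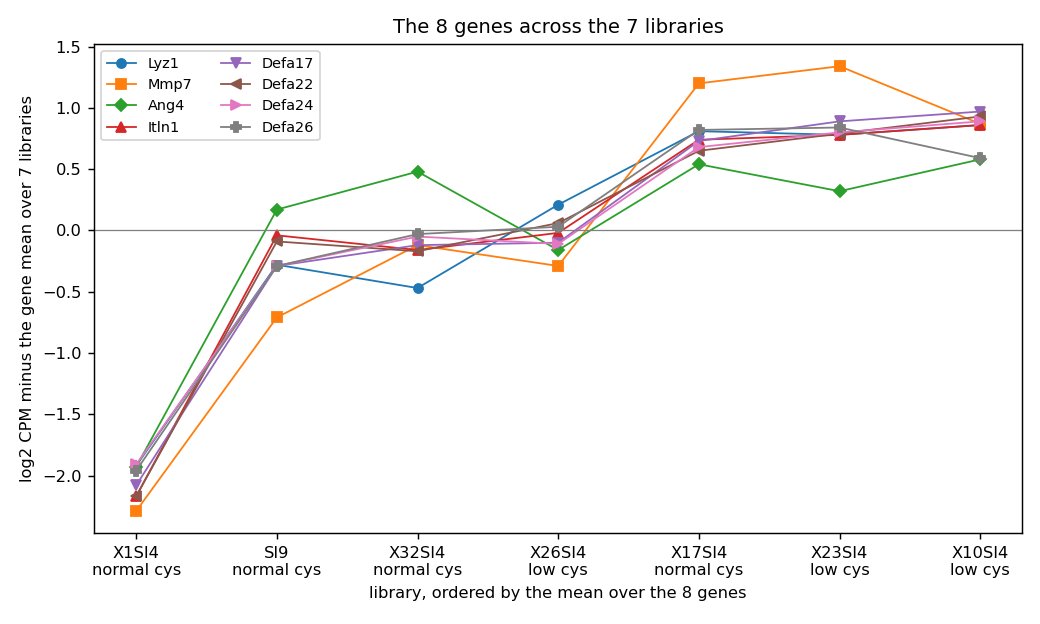
Log2 CPM minus the gene's mean over the 7 libraries (y axis, log2 scale) for the 8 genes, with the libraries (x axis) ordered by the mean over the genes and marked with their diet; each line is 1 gene. The lines run together from about -2.05 in X1SI4 to 0.82 in X10SI4, and Ang4 and Mmp7 leave the bundle most.

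Leaving out single libraries moved the comparison of the diets, most of all X17SI4 and X1SI4, the highest and the lowest normal cys mouse. Without X1SI4, the median log2 fold change of the members was 0.43 (-0.12 to 0.51), 7 of 8 were higher on the low cys diet, and the lowest edgeR adjusted p was 0.818. Without X17SI4, the median was 1.17 (0.39 to 1.58), and 6 of 8 members, all but Ang4 and Itln1, had an unadjusted edgeR p under 0.05, as did 11.9% of all genes tested in that fit. In 5 of 8 the low cys libraries then lay apart from the normal cys libraries, as they did in 18% of all genes. The lowest adjusted p was 0.373, for Lyz1, so no member passed the test with either library left out. Without low cys library X26SI4, the lowest on that diet in all 8 members, the median was 1.00 and the diets lay apart in 4 of 8 members, as they did in 19.7% of all genes. Without X23SI4 the log2 fold change of Mmp7 was 0.41.

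**Figure D4:**
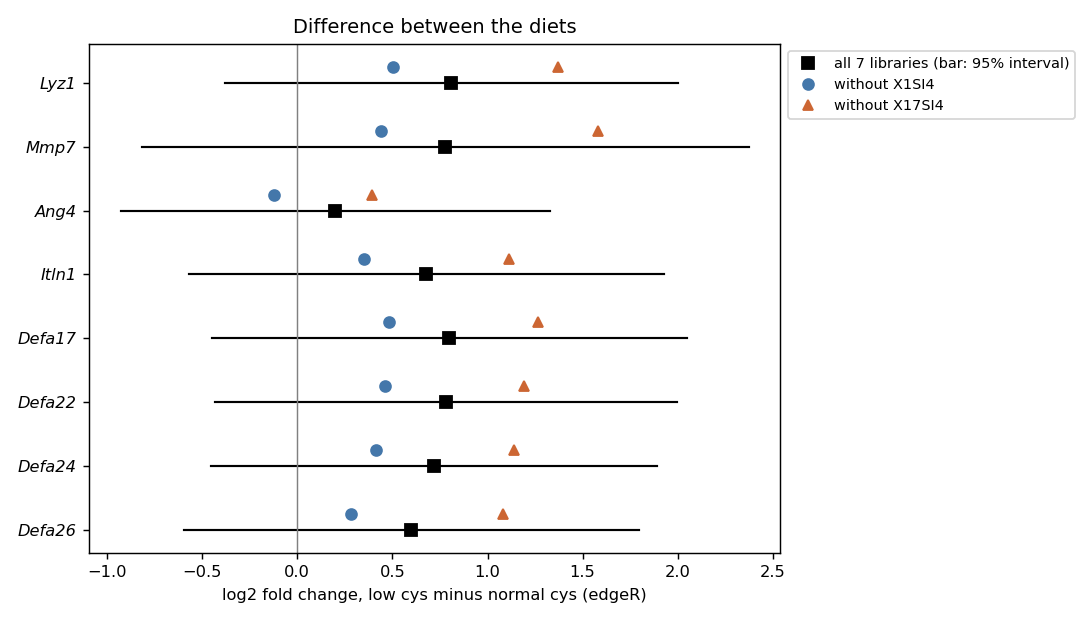
Log2 fold change, low cys minus normal cys, from edgeR (x axis) for the 8 genes (y axis); squares are the fit on all 7 libraries with bars for the 95% interval, circles the fit without X1SI4 and triangles the fit without X17SI4. Every interval on all libraries includes 0, and Ang4 lies below 0 without X1SI4 (-0.12).

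The alpha-defensin family was then examined as a whole. By deposited or GENCODE M21 names starting with Defa, it comprised 39 rows on chromosome 8, 22 protein-coding genes and 17 pseudogenes. Alpha-defensins under other names were not included. Of the rows, 26 passed the filter on low counts and 6 had no count in any library. All 26 had a higher estimate on the low cys diet (median 0.80, 0.60 to 1.52), 0 had an adjusted p under 0.05 and 2 an unadjusted p under 0.05, beside 5.49% of all genes, and the rows share reads with each other. Those 2 were among the lowest in the family. Gm15299, which GENCODE M21 names Defa27, had means of 1.36 ± 0.58 and 2.99 ± 1.35 CPM on the normal and low cys diets (log2 fold change 1.14, edgeR adjusted p = 0.794). The pseudogene Defa-ps1 had means of 1.81 ± 1.26 and 4.799 ± 2.05 CPM (log2 fold change 1.41, edgeR adjusted p = 0.794).

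Some rows of the family were nearly copies of each other in the counts. Defa23 and Defa-rs7 (Defa31 in M21) differed by at most 7 counts (0.0839%) in any library, and every 50-base stretch of Defa-rs7 also occurred in Defa23. Summed into 1 feature, the 39 rows had a log2 fold change of 0.78 ± 0.53 (SE) with an unadjusted p of 0.174 and an adjusted p of 0.795 by edgeR. This estimate lay close to those of Defa17, Defa22 and Defa24. Every 50-base stretch of Defa-rs7 was shared, yet in X17SI4 it held 11520 counts and Defa23 held 11514. Reads shared between rows were thus not dropped, so the sum and the family shares below can hold them more than once. By how much was not tested.

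Family counts made up 1.62%, 0.919%, 0.750% and 0.222% of all counts in X17SI4, X32SI4, SI9 and X1SI4, and 1.99%, 1.04% and 1.96% in X23SI4, X26SI4 and X10SI4. The 8 members together took 0.543%, 0.301%, 0.260% and 0.078% of the counts on the normal cys diet and 0.653%, 0.350% and 0.647% on the low cys diet. The mean share of the members was 0.295 ± 0.191% (SD, n = 4) against 0.550 ± 0.173% (SD, n = 3). No p is given for these sums, because the members were chosen with earlier results known.

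Scaled by length and weighted by the cysteine codons of each gene, the 8 members held 1.80%, 1.17%, 1.04% and 0.297% of all cysteine codons in the coding RNA of X17SI4, X32SI4, SI9 and X1SI4. In the low cys libraries X23SI4, X26SI4 and X10SI4 they held 2.18%, 1.30% and 2.34%. Their share of the length-scaled coding RNA, without the codon weights, was 2.08%, 1.275%, 1.03% and 0.331% in the normal cys libraries. On the low cys diet it was 2.51%, 1.39% and 2.51%, in the same order of libraries. The members' share of cysteine codons was thus about the same as, or lower than, their share of coding RNA. These are shares of RNA, not of protein, and the ranges of the diets overlapped as they did for the counts.

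Promoter windows of 300 bases, from 250 bases before to 50 bases after the gene start, were available from RefSeq (GRCm38.p6) for 5 of the 8 members: Lyz1, Mmp7, Ang4, Itln1 and Defa22. They were searched on both strands for ATCAAAG, the core bound by TCF/LEF factors, the DNA-binding partners of beta-catenin in Wnt signalling, since Paneth cell maturation is known to depend on Wnt signals. Defa22 held 2 matches, starting 112 and 72 bases before the gene start, and they are shown in capitals in the 150 bases before it (plus strand, 5′ to 3′), because so few promoters hold 2.
Defa22, chr8:21162127-21162276: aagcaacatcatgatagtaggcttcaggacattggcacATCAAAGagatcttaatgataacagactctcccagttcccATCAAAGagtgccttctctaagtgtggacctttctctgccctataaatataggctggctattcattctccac

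Of 32851 windows, 3.73% held the motif at least once and 0.1% held it 2 or more times. All 12 alpha-defensin windows in the table held it, and 8 of them 2 or more times, though these windows are related in sequence and are not separate cases. Mmp7 held 1 match in each of its 2 windows, at the same site, and Lyz1, Ang4 and Itln1 held none in these windows. A match is a description of the sequence, and binding was not measured.

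Other genes of the Paneth cell were described by counts. Among other granule products, 13 of 14 genes tested had a higher estimate on the low cys diet (median 0.41), with 0 at an unadjusted p under 0.05. The most abundant were Reg3b and Reg3g, bactericidal lectins that enterocytes also make. Reg3b stood at 18286, 1991, 1360 and 2040 CPM in X17SI4, X32SI4, SI9 and X1SI4 and at 18755, 2573 and 5793 CPM in X23SI4, X26SI4 and X10SI4. Like the members it was high in X17SI4 and X23SI4, but X1SI4 was not its lowest library. Reg3g had a log2 fold change of 0.38 (edgeR adjusted p = 0.928).

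Genes of Paneth cell fate and secretion had estimates closer to 0 than the granule products. Of 27 tested, 16 had a higher estimate, the median was 0.04, and 0 had an unadjusted p under 0.05. Their summed level ran from 817 to 946 CPM over the 7 libraries and was 845 CPM in X1SI4, which was not the lowest library. The most abundant genes weigh most in this sum, so it hardly shows changes in genes of low count. One of these, Ephb3, chosen after its values were seen, ran from 0.860 CPM in X1SI4 to 5.88 CPM in X23SI4. Gene by gene, X1SI4 was the lowest of the 7 libraries in 8 of the 27, beside 41.3% of the 155 genes tested over all lists. The 2 most abundant genes of this list were Xbp1 and Fzd5. Xbp1, a transcription factor of secretory cells, stood at 188 CPM on the normal and 200 CPM on the low cys diet. Fzd5, a Wnt receptor, stood at 160 and 164 CPM.

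Other cell types of the scraping were checked in the same libraries, and their part in the members' levels was not tested. The proliferation genes followed an order close to that of the members, with a summed level of 477, 352, 208 and 166 CPM in X17SI4, X32SI4, SI9 and X1SI4 and 527, 291 and 465 CPM in X23SI4, X26SI4 and X10SI4. All 12 had a higher estimate on the low cys diet, with 0 at an unadjusted p under 0.05 (median 0.57), and the most abundant over the 7 libraries were Mki67 and Top2a. Of 10 crypt stem cell genes 1 had an unadjusted p under 0.05, beside 5.49% of all genes tested. It was Slc12a2, an ion transporter of crypt cells, at 32.8 and 60.8 CPM on the normal and low cys diets (log2 fold change 0.89, edgeR adjusted p = 0.794).

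Estimates of other lists leaned to one side as well. On the low cys diet, 0 of 11 enterocyte genes (median -0.41), 0 of 7 tuft cell genes (median -0.52) and 0 of 8 T cell genes (median -0.25) had a higher estimate, against 8 of 8 stroma genes (median 0.75), 6 of 6 smooth muscle genes (median 1.56) and 11 of 12 macrophage genes (median 0.51). None of these genes had an adjusted p under 0.05 with edgeR. Summed, the smooth muscle genes reached 38.2 CPM in X26SI4 but only 5.63 CPM in X23SI4 and 14.4 CPM in X10SI4. On the normal cys diet they ran from 2.34 to 12.1 CPM, so low levels and 1 library weigh on their estimates.

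X1SI4 also stood apart in these lists. Its summed goblet cell level of 22234 CPM compared with 12161 to 15001 CPM in the other 3 normal cys libraries, and its distal ileum level of 12278 CPM was the highest of the 7. Its macrophage level of 37.7 CPM compared with 99.7 to 121 CPM in the other normal cys libraries. Its summed levels of stem cell, proliferation, macrophage and plasma cell genes were the lowest of the 7. Gene by gene it was the lowest library in 11 of 12 proliferation genes, 10 of 12 macrophage genes, 9 of 14 other granule products and 6 of 8 stroma genes, and in 0 of 11 enterocyte and 0 of 8 distal ileum genes. Of the pancreatic acinar genes 5 of 10 were at 0 in every library and 1 was tested. Over all 17 lists, 155 different genes were tested, 13 had an unadjusted p under 0.05 (8.39%, beside 5.49% of all genes tested) and 0 an adjusted p under 0.05 with edgeR. Besides Slc12a2, the genes at an unadjusted p under 0.05 included Gcg, Mpeg1, Igj, AC160982.1 (Igha), Dcn, Col3a1, Actg2 and Des, with higher estimates on the low cys diet, and Avil, Apoa1 and Krt20, with lower ones. The smooth muscle genes Actg2 and Des were highest in X26SI4, at 5.62 and 6.81 CPM, but stood at 0.408 and 1.55 CPM in X23SI4, within their normal cys ranges.

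The genes whose pattern over the 7 libraries was most like the mean of the members were ranked by Pearson's r, as a description. Of 14839 genes that were neither members nor named as alpha-defensins, 544 had an r over 0.9, with a median of -0.03 over all. X1SI4, far below the other libraries in the members, weighs on every r, and the ranking was made only with it. The first 4 were Gm7849 and Gm7861 (both 0.999), Gm14851 (0.997) and AY761184 (0.996). Between 9.34% and 50.99% of their 50-base stretches also occurred in alpha-defensin rows. Family rows were taken by name, so any alpha-defensin among these 4 was left out of the family. The next were Bambi (0.996), which encodes a pseudoreceptor for TGF-beta family ligands, Supt16h (0.990), a histone chaperone subunit, and Smo (0.989), the Hedgehog signal transducer. D2Ertd750e (0.989), Gpld1 (0.986) and 3110082I17Rik (0.985) completed the 10. Bambi was measured at only 0.860 to 3.71 CPM and Supt16h varied by only 1.45-fold over the libraries, so a like pattern does not mean a like size of change.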

How the data were processed

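The data are RNA-seq of ileal scrapings from 4 normal cys and 3 low cys mice, grouped by their sample titles. The authors made poly(A)-selected stranded libraries (paired-end, 50 bases), trimmed reads with Trim Galore 0.6.5, removed ribosomal reads, aligned with STAR to GRCm38 and counted reads on exons with featureCounts (Ensembl annotation). They deposited raw counts per gene without normalization. The strand setting and the handling of multi-mapping reads are not given in the sources used here.

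From these counts, genes were kept by filterByExpr (minimum count 10, minimum total 15), scaled by TMM, and compared in edgeR 4.0.16 (R 4.3.3) by its quasi-likelihood test in the robust form, with Benjamini-Hochberg adjustment over 14869 genes. The study's own test, DESeq2 (1.42.0 here), was an alternative, as were limma-voom (limma 3.58.1), other scalings and filters and leaving out each library. Log2 CPM used a prior count of 2. The biological coefficient of variation was 25.5%. Of the rows, 36429 were matched to GENCODE M21 and 1864 were not. Nothing says that a batch was shared or differed, so none was examined. The edgeR script was tested on simulated data.

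The members and gene lists were chosen with earlier results of these data known. Named besides the members are list or family genes with an unadjusted p under 0.05, otherwise the 2 most abundant of a list, and the 10 genes most alike in pattern. For lists of other cell types only those that bear on the members are named, and 1 gene that the rule would name is not reported here. Lyz2, Defa3, Defa21, Defa23, Defa-rs7 and Gm15292 were named for sequence or counts shared with a family or member gene. Ephb3 was named after its values were seen.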

Additional observations from a re-analysis of the deposited data

Results flagged for a closer look

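Ang4 in library X1SI4 lay far below the other 3 normal cys libraries. On the log2 scale its gap to the nearest of them, divided by the range of the 4, was 0.849, above Dixon's 95% critical value of 0.829. Of the 10 values examined (the 8 members, their share of counts and that of the alpha-defensin family) this was the 1 beyond the limit, and chance alone flags about 1 in 20 such values. X1SI4 was the library farthest from the others in all 10.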

How the results depend on the processing

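Over 120 other fits of single members, 119 log2 fold changes were positive and 0 had an adjusted p under 0.05 (lowest 0.373). Ang4 reversed to -0.12 without X1SI4. Leaving out each library in turn gave log2 fold changes of 0.51 to 1.37 for Lyz1, 0.41 to 1.58 for Mmp7, -0.12 to 0.40 for Ang4, 0.35 to 1.11 for Itln1, 0.48 to 1.26 for Defa17, 0.46 to 1.19 for Defa22, 0.41 to 1.14 for Defa24 and 0.28 to 1.08 for Defa26. The members with an unadjusted p under 0.05 then numbered 0 to 6, all genes with one 258 to 1763, and genes with an adjusted p under 0.05 0 to 1. With DESeq2, 16 genes but no member had an adjusted p under 0.05 (members 0.841 to 0.948). The cause of these differences was not tested. Scaling by total library size alone shifted the median of all genes from 0.01 to 0.15, and the members' median from 0.75 to 0.89. The difference in the members' share of counts ran from 0.183 to 0.355 percentage points when a library was left out. No paired analysis was possible because the labels give no replicate numbers that the diets share. With 4 and 3 mice, the 95% interval of every member covered both a lower and a much higher level on the low cys diet. The direction of a difference was therefore not settled.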
